A study of Mus musculus with 12 samples.

Results

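Intermediate filaments are the cytoplasmic fibers that give a cell its mechanical form, and the nuclear lamins are their relatives inside the nucleus. To follow this gene family through postnatal development of the cerebellum, 10 genes were taken from the expression table by symbol: Gfap, Vim, Nes and Synm, whose filaments are known from glia and their progenitors, Ina, Nefl and Nefm, which are known from neurons, and the lamin genes Lmna, Lmnb1 and Lmnb2. All 10 were found among the 24421 entries of the table, and all 10 were among the 15464 genes tested. The cells, labelled as astrocytes, were GFP-positive cells of the Aldh1l1-GFP mouse line, sorted from dissociated cerebellum on postnatal day 1 (P1), day 7 (P7), day 14 (P14) or day 28 (P28). Their RNA was sequenced in 3 libraries for each age, 12 in all. Every group had the same genotype, on the C57/BL6J background, and the labels set the groups apart by age. The methods state that both sexes were used in all experiments, without giving the sexes in each age group. The methods describe sequencing on 2 Illumina instruments, and the sources used here do not say on which of them each library was run. The reporter places GFP under control of Aldh1l1, an enzyme of folate metabolism used to mark astrocytes, and the sort keeps whatever cells carried GFP at that age. The sources used here do not say whether the 3 libraries of an age came from separate animals or litters, so p-values measure only the spread between these libraries.

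Values are normalized counts, that is, reads on a gene divided by 1 size factor for each library. Reads on genes numbered 11478899 to 14733985 in the P1 libraries, 6399499 to 11328604 in the P7 libraries, 9470510 to 9856910 in the P14 libraries and 7965152 to 10269334 in the P28 libraries. A single read was worth 0.615 to 1.461 normalized counts, depending on the library.

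Cytoplasmic filament proteins share a central rod of coiled coils and assemble without polar ends, and cells exchange one member for another as they mature. Radial glia and Bergmann glia, the cerebellar glia that keep a radial form, are known for vimentin and nestin, whereas GFAP is the best known filament protein of astrocytes. The lamins form the meshwork under the inner nuclear membrane. B-type lamins stay anchored to the membrane by a lipid tail, and A-type lamins, which come from Lmna, are also found in the nuclear interior.

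The sorted cells carried the markers of astrocytes at every age, together with markers of other cells whose levels moved with age. All 10 astrocyte markers were measured, and their summed level ran from 63873 to 83044 normalized counts at P1, from 29798 to 55597 in the P7 libraries, from 180506 to 217725 in the P14 libraries and from 398776 to 468024 in the P28 libraries. Slc1a3, a glutamate transporter, had the highest mean of them over the 12 libraries, although Aqp4, a water channel, was above it at P7 (14593 against 10471). Here and below, the gene said to lead a list or to be its most abundant is the one with the highest mean over the 12 libraries, which need not lead at each age. Aldh1l1 itself was at 6441, 4741 and 3842 normalized counts in the P1 libraries, 1985, 936 and 1488 in the P7 libraries, 1834, 1978 and 1824 in the P14 libraries, and 2451, 3338 and 2974 in the P28 libraries. None of the astrocyte markers was at 0 in any library.

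The list of oligodendrocyte lineage markers, led by Mbp, a protein of myelin, summed to 7650 to 11913 normalized counts at P1, 21573 to 31495 in the P7 libraries, 280514 to 350271 in the P14 libraries and 98419 to 135497 in the P28 libraries. At P1, Pdgfra, with a mean of 3646, was above Mbp, with a mean of 647. Pdgfra and Sox10, which mark the lineage before myelin, ranged from 231 to 4772 and from 164 to 1636 over the 12 libraries. The 11 cell cycle genes, led by Mki67, summed to 22009 to 28140 at P7 and 710 to 946 at P28. Ttr, a transport protein made by the choroid plexus, set some libraries apart. It was at 685, 289 and 221 normalized counts at P1, at 60055, 125927 and 47082 in the P7 libraries, at 107436, 62320 and 796 in the P14 libraries, and at 102429, 179566 and 17368 in the P28 libraries, so P14 replicate 3 lay far below the other P14 libraries. In bulk RNA, fewer cells of a type and less RNA per cell cannot be told apart, which holds for each change below.

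Genes were compared between consecutive ages, and from P1 to P28, with limma on log2(normalized count + 1) in 1 fit over the 12 libraries, and were called at a Benjamini-Hochberg adjusted p under 0.05 over all 15464 genes. In the first step, from P1 to P7, 4 of the 10 genes were called, where 7.70% of all genes were called. Gfap and Ina were higher at P7 (2 of 10, beside 3.47% of all genes), while Vim and Nes were lower (2 of 10, beside 4.24%). Between P7 and P14, Nes, Ina and Lmnb1 were lower and none was higher, so that 3 of the 10 were called beside 20.9% of all genes (10.0% of all genes were lower and 10.8% higher). In the last step, Gfap and Vim were higher at P28 than at P14 (2 of 10, beside 5.68% of all genes) and Lmnb1 was lower (1 of 10, beside 8.76%), again 3 of 10 called beside 14.4%. By the thresholds of the study, a p under 0.05 and a fold change over 0.75, taken here as an unadjusted p and a log2 change in either direction, 5 of the 10 were called in this step beside 24.1% of all genes, with Ina and Lmnb2 added. Over the whole span from P1 to P28, Gfap was higher (1 of 10, beside 14.6%) and Nes and Lmnb1 were lower (2 of 10, beside 20.0%), in all 3 of 10 beside 34.6%, so that the share of the family was close to the background there.

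Libraries of the earlier and the later age did not overlap in 6 of the 10 genes from P1 to P7 (38.3% of all genes), in 4 from P7 to P14 (46.1%), in 4 from P14 to P28 (26.1%) and in 3 from P1 to P28 (41.9%). The count lay above the background in the first step and from P14 to P28, and near or below it in the others. Synm, Nefl, Nefm, Lmna and Lmnb2 were not called in any of the 4 comparisons.

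The median log2 fold change of the 10 genes was -0.39 from P1 to P7, -0.27 from P7 to P14, -0.47 from P14 to P28 and -0.73 from P1 to P28. The median over all genes tested was 0.037, -0.086, -0.122 and -0.235 in the same order. Without P14 replicate 3, the library with little Ttr, 4, 3, 1 and 3 of the 10 genes were called in the 4 comparisons, beside 7.31%, 17.1%, 8.03% and 34.3% of all genes, and the calls lost were those of Gfap and Lmnb1 from P14 to P28.

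**Figure D1:**
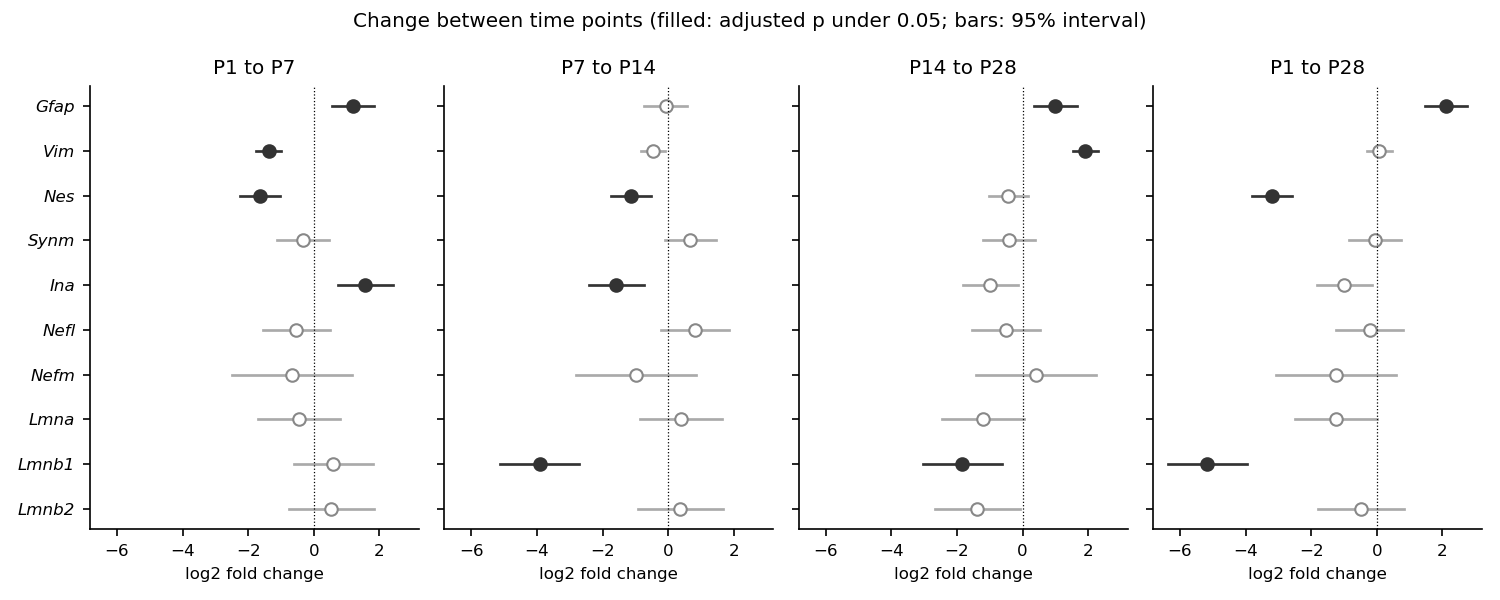
Log2 fold change (later minus earlier age) of each of the 10 genes in the 4 comparisons, with 95% intervals from limma; filled points have an adjusted p under 0.05. Lmnb1 has the filled point farthest to the left in each panel after the first, and Synm, Nefl, Nefm, Lmna and Lmnb2 have open points in all 4 panels.

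Gfap encodes glial fibrillary acidic protein and lies on chromosome 11 from 102887336 to 102900912 on the minus strand (GRCm38, ENSMUSG00000020932). The 250 bases before its RefSeq start, chr11:102897201-102897450 on the minus strand of GRCm38.p6, fall inside the GENCODE span of the gene and overlap no annotated exon. They are shown because Gfap was the only one of the 10 genes that was higher at P28 than at P1 by the test. The TATA box written as TATAAA, the GC box written as GGGCGG, the box named for its letters CCAAT, the E-box written as CAGCTG and the palindrome TTCNNNGAA were searched on both strands in this window and in the same window of all 32851 RefSeq promoters. None of the 5 was found in that of Gfap.
Gfap: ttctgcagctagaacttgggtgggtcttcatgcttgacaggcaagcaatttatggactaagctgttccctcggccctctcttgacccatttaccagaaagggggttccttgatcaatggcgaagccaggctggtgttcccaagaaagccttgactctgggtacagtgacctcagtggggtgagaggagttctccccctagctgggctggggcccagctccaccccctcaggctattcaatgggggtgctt

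Gfap was at 789, 844 and 360 normalized counts in the 3 P1 libraries, at 1773, 1119 and 1439 in the P7 libraries, at 1538, 1447 and 1078 in the P14 libraries, and at 2740, 2056 and 3400 in the P28 libraries. The level was thus higher after P1 and higher again at P28. The P1 libraries lay below all P7 libraries, the P7 and P14 libraries overlapped, and the P28 libraries lay above all others. The first step raised Gfap by 1.19 on the log2 scale (SE 0.30, limma adjusted p = 0.0262), a 2.28-fold change. Between P7 and P14 the difference was -0.08 (95% interval -0.73 to 0.56, limma adjusted p = 0.891). In the last step, it rose by 1.00 (SE 0.30, limma adjusted p = 0.0405), and over the whole span by 2.10 (SE 0.30, limma adjusted p = 1.09e-04), which kept its call with each library left out in turn.

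Both single steps of Gfap were less firm. The call from P1 to P7 was lost without P1 replicate 3 (log2 fold change 0.80, limma adjusted p = 0.0858), without P7 replicate 1 (1.03, 0.114) and without P7 replicate 3 (1.18, 0.0863). The call from P14 to P28 was lost without any 1 of 6 libraries (P7 replicate 3, the 3 P14 libraries, and P28 replicates 1 and 3), with a highest limma adjusted p of 0.148, with libraries scaled by their totals alone (0.76, 0.0878), with no filter on low values (0.0562) and in a fit of the P14 and P28 libraries only (0.0549).

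Vim encodes vimentin and lies on chromosome 2 from 13573927 to 13582826 on the plus strand. It was at 18181, 15829 and 15249 normalized counts at P1, at 7032, 5778 and 6136 in the P7 libraries, at 4584, 5441 and 3840 in the P14 libraries, and at 14173, 16791 and 21494 in the P28 libraries. Its level was therefore high at both ends of the series and low in between. The P1 and P28 libraries overlapped, and each of these 6 libraries lay above each of the 6 libraries of P7 and P14.

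Vim fell by 1.38 on the log2 scale from P1 to P7 (SE 0.17, limma adjusted p = 2.69e-04), a 2.60-fold change. The P14 libraries lay below the P7 libraries without overlap, with a difference of -0.46 that was not called (limma adjusted p = 0.0771). It was called with libraries scaled by their totals alone (-0.72, limma adjusted p = 0.00444), in a fit of the P7 and P14 libraries only (-0.46, 0.0475) and without P28 replicate 3 (0.0465). Vim then rose by 1.91 from P14 to P28 (SE 0.17, limma adjusted p = 5.88e-05), a 3.77-fold change. The calls from P1 to P7 and from P14 to P28 stood with each library left out in turn. P28 and P1 differed by 0.07 (95% interval -0.30 to 0.45, limma adjusted p = 0.77), and this difference was -0.36 when libraries were scaled by their totals alone.

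Nes encodes nestin, the filament protein used to mark neural stem and progenitor cells, and lies on chromosome 3 from 87971078 to 87980451 on the plus strand. The 250 bases before its RefSeq start, chr3:87970843-87971092 on the plus strand, are shown because Nes was the glial filament gene with the largest change from P1 to P28. Capitals mark GGGCGG on the minus strand, at bases 73 to 68 and 62 to 57 before the start. This motif was present in 32.7% of all RefSeq promoters.
Nes: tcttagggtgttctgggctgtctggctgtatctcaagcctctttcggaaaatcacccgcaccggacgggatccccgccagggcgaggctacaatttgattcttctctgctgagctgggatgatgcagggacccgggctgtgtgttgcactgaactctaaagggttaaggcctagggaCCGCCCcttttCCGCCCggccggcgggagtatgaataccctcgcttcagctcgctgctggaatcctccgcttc

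Nes was at 3514, 1823 and 3034 normalized counts at P1, at 858, 1021 and 717 in the P7 libraries, at 297, 561 and 366 in the P14 libraries, and at 262, 349 and 273 in the P28 libraries. The libraries of P1, P7 and P14 did not overlap and each age lay below the one before, while those of P14 and P28 overlapped. Nes fell by 1.65 from P1 to P7 on the log2 scale (SE 0.28, limma adjusted p = 0.00242) and by 1.12 from P7 to P14 (SE 0.28, limma adjusted p = 0.011). The last step, from P14 to P28, was -0.43 (95% interval -1.03 to 0.18, limma adjusted p = 0.336). From P1 to P28 Nes fell by 3.20 (SE 0.28, limma adjusted p = 1.32e-06), a 9.17-fold change. The call from P7 to P14 was lost without P7 replicate 2 (-0.99, limma adjusted p = 0.0531) and without P14 replicate 1 (-0.92, 0.0565).

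Synm encodes synemin, a large filament protein that assembles together with vimentin or desmin, and lies on chromosome 7 from 67730160 to 67759742 on the minus strand. It averaged 293 ± 122 normalized counts at P1, 238 ± 121 in the P7 libraries, 358 ± 64.7 in the P14 libraries and 269 ± 39.2 in the P28 libraries (SD, n = 3 each). No pair of neighbours in the order of its means passed the test, and P28 differed from P1 by -0.06 on the log2 scale (95% interval -0.85 to 0.74). The P28 libraries, at 272, 229 and 307, lay below the P14 libraries, at 322, 318 and 432, with a limma adjusted p of 0.498.

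**Figure D2:**
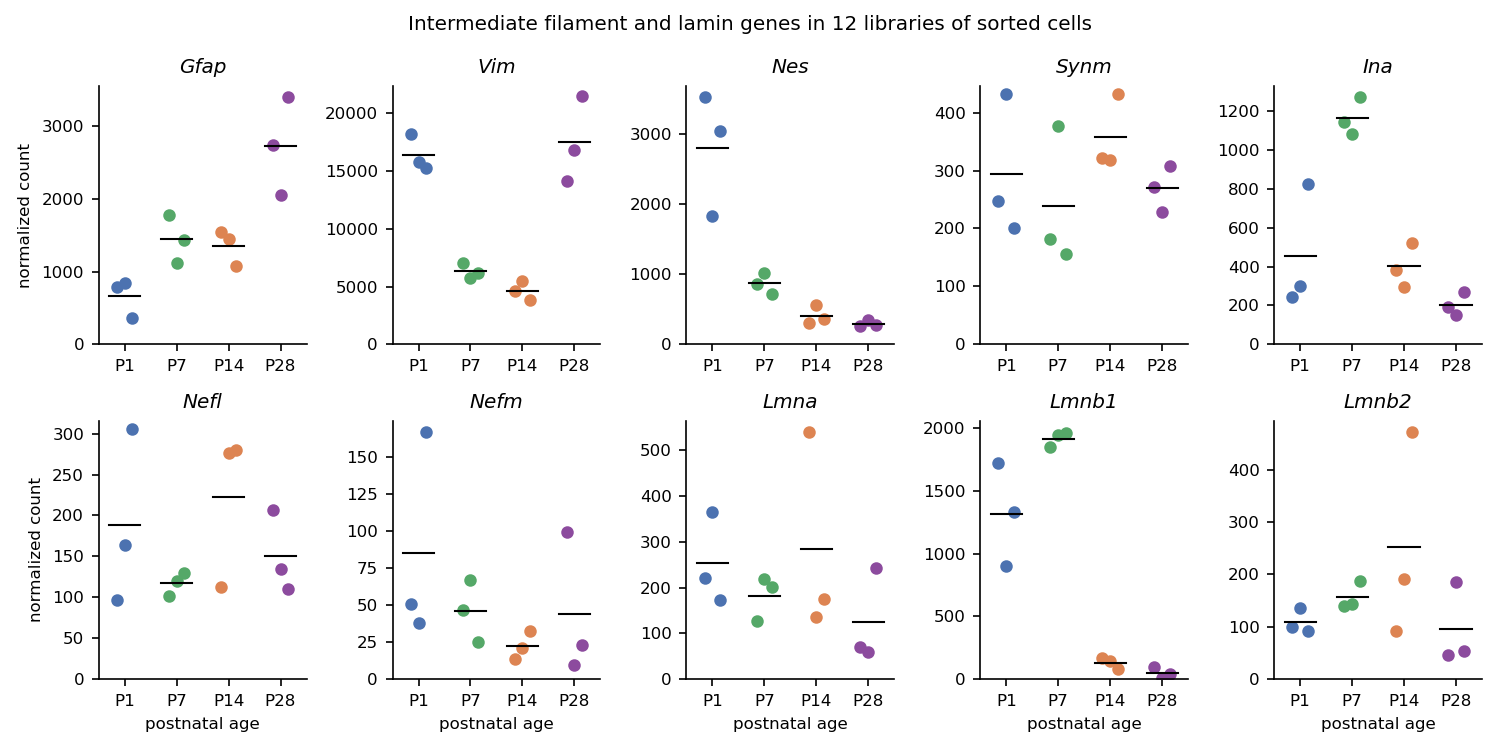
Normalized counts of the 10 genes (vertical axes, linear from 0, each with its own range) at P1, P7, P14 and P28; each point is 1 of the 3 libraries of an age and each bar is their mean. Vim is high at P1 and P28, the mean of Nes is lower at each age than at the one before, Ina stands out at P7 with 1082 to 1274, and Lmnb1 drops from 1846 to 1961 in the P7 libraries to 82.5 to 165 in the P14 libraries.

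Ina encodes alpha-internexin, the neuronal filament protein known from early stages of neuron development, and lies on chromosome 19 from 47014698 to 47025327 on the plus strand. Its window before the RefSeq start, chr19:47014431-47014680 on the plus strand, is shown because Ina was the only one of the 10 genes that was called in opposite directions in consecutive steps through a peak at P7. Capitals mark GGGCGG on the minus strand at bases 111 to 106 and 12 to 7 before the start, and CAGCTG, which reads the same on both strands, at bases 135 to 130. CAGCTG was present in 13.0% of all RefSeq promoters.
Ina: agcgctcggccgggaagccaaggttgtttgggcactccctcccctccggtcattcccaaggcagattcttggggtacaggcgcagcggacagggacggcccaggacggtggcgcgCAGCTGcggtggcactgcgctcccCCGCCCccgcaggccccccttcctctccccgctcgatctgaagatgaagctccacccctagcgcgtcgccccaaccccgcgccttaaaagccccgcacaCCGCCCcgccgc

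Ina was at 242, 299 and 825 normalized counts at P1, at 1146, 1082 and 1274 in the P7 libraries, at 382, 297 and 522 in the P14 libraries, and at 191, 149 and 268 in the P28 libraries. The P7 libraries lay above all others, and P1 replicate 3 was the highest library outside P7. Ina rose by 1.57 on the log2 scale from P1 to P7 (SE 0.39, limma adjusted p = 0.0236) and fell by 1.58 from P7 to P14 (SE 0.39, limma adjusted p = 0.01). Ina at P28 differed from P14 by -0.98 without overlap of the libraries and was not called (limma adjusted p = 0.107), but it was called without P1 replicate 3 (0.0391) and with the replicate number as a block (0.046). From P1 to P28 it was -0.99 (limma adjusted p = 0.064), a difference that was called with edgeR (adjusted p = 0.0434), with DESeq2 (0.0174), with libraries scaled by their totals (0.0107), and without P1 replicate 1 (0.0281) or P28 replicate 3 (0.0388).

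The rise of Ina lost its call when P1 replicate 1 (log2 fold change 1.23, limma adjusted p = 0.124), P1 replicate 2 or any P7 library was left out, and had an adjusted p of 0.0539 with edgeR. The fall from P7 to P14 lost its call without P14 replicate 2 (-1.38, limma adjusted p = 0.0533). Of the 3240 exon bases of Ina, 456 (14.1%) also belong to Nt5c2 on the opposite strand. Whether the counting used strand is not given in the sources used here, and without strand these reads cannot be told apart.

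Nefl and Nefm encode the light and medium neurofilament proteins, which fill mature axons. They lie on chromosome 14 on opposite strands, Nefl from 68083863 to 68089095 and Nefm from 68082590 to 68124846, and share 1108 exon bases, 32.8% of those of Nefl and 19.2% of those of Nefm. Their values are therefore uncertain where reads could be counted for either gene. Nefl ranged from 96.6 to 305 normalized counts at P1, 102 to 130 in the P7 libraries, 112 to 280 in the P14 libraries and 110 to 206 in the P28 libraries. Nefm ranged from 37.9 to 167 at P1, 24.8 to 66.7 in the P7 libraries, 13.8 to 32.6 in the P14 libraries and 9.44 to 99.4 in the P28 libraries, the lowest of these values resting on 8 reads. For neither gene did any pair of ages pass the test over all libraries, though without P28 replicate 1 Nefm was called from P1 to P28 (-2.13, limma adjusted p = 0.0485, against -1.25 and 0.277 with it), and the ages overlapped except that all P14 values of Nefm lay below all P1 values. The standard errors of the steps were 0.48 for Nefl and 0.86 for Nefm on the log2 scale, so that the 95% interval of Nefm from P1 to P28, for example, ran from -3.08 to 0.59.

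To compare levels between genes, normalized counts were divided by the summed exon length of each gene in kilobases. Of the total of the 7 cytoplasmic filament genes per kilobase, Vim made up 89.6% ± 1.78 at P1, 75.6% ± 0.722 in the P7 libraries, 76.5% ± 2.70 in the P14 libraries and 90.1% ± 1.99 in the P28 libraries (SD, n = 3 each). The total itself was 8354 ± 734, 3809 ± 354, 2745 ± 384 and 8841 ± 1799 normalized counts per kilobase at the 4 ages. Gfap made up 1.95% ± 0.763, 9.24% ± 1.29, 12.1% ± 1.57 and 7.64% ± 1.55 in the same order.

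Vim therefore remained the most abundant of the 7 genes per kilobase in all 12 libraries. Its level per kilobase was 34.8 to 78.6 times that of Gfap in the P1 libraries, 7.36 to 9.59 times at P7, 5.53 to 6.98 times at P14 and 9.60 to 15.2 times at P28. The P1 libraries lay above those of every later age, and the P28 libraries lay above those of P7 and P14, though the lowest P28 and the highest P7 values were close. Nes made up 5.41% ± 1.43 of the total at P1 and 0.559% ± 0.138 at P28. Ina made up 9.50% ± 1.06 of the total at P7, about the share of Gfap at that age, and 1.73% ± 1.29, 4.68% ± 1.95 and 0.706% ± 0.136 at P1, P14 and P28.

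**Figure D3:**
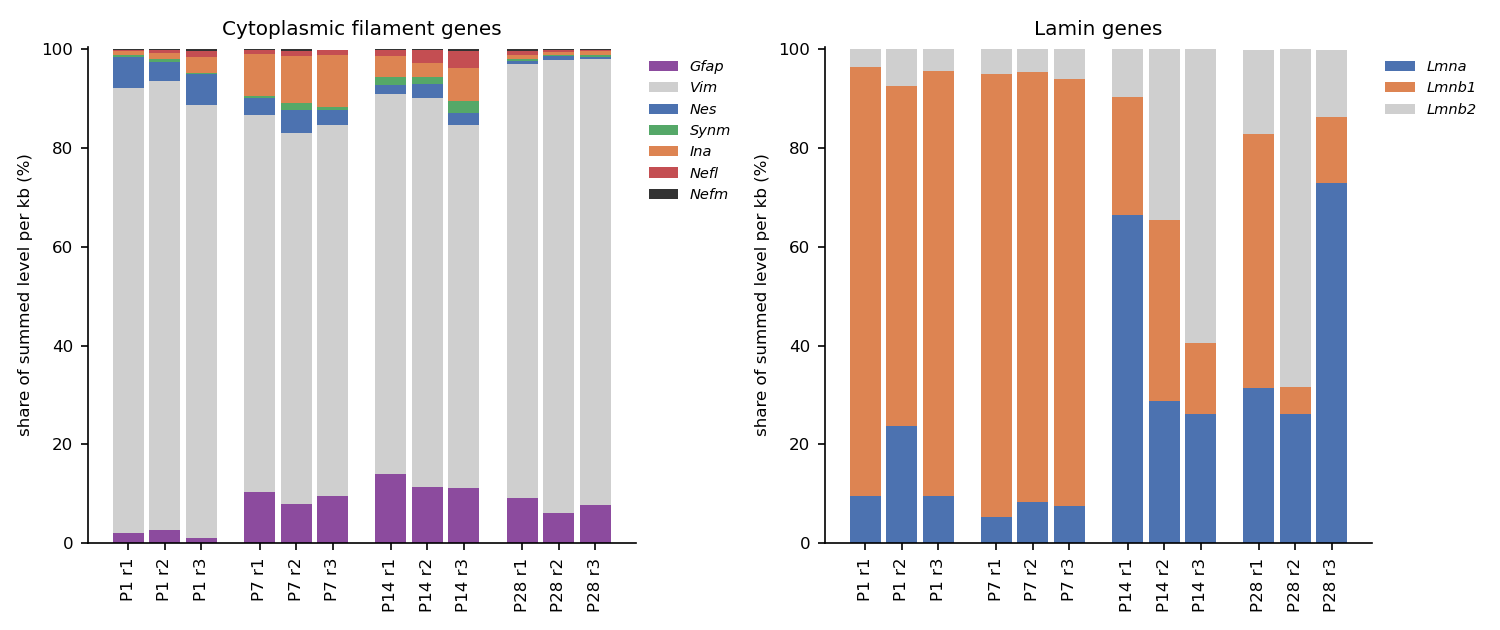
Share of each gene in the summed level per kilobase (vertical axis, %, from 0 to 100) of the 7 cytoplasmic filament genes (left) and of the 3 lamin genes (right), with 1 bar per library. Vim fills most of every bar on the left, with wider bands of Gfap and Ina at P7 and P14, and Lmnb1 fills most of the P1 and P7 bars on the right.

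Lmnb1 encodes lamin B1, the B-type lamin whose loss is used to mark senescent cells, and lies on chromosome 18. It was at 1722, 901 and 1331 normalized counts at P1, at 1846, 1944 and 1961 in the P7 libraries, at 165, 146 and 82.5 in the P14 libraries, and at 97.9, 10.6 and 37.9 in the P28 libraries, where the lowest library held 9 reads. The P7 libraries lay above those of P1, and all 6 libraries of P14 and P28 lay far below both. From P7 to P14 Lmnb1 fell by 3.92 on the log2 scale (SE 0.56, limma adjusted p = 1.91e-04), a 15.1-fold change and the largest single step among the 10 genes. From P1 to P28 it fell by 5.17 (SE 0.56, limma adjusted p = 9.47e-06), a 35.9-fold change. Both calls stood with each library left out in turn, though the change from P1 to P28 ran from -5.91 without P28 replicate 1 to -4.36 without P28 replicate 2.

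The other steps of Lmnb1 were smaller. P7 differed from P1 by 0.59 (95% interval -0.62 to 1.79, limma adjusted p = 0.687). Lmnb1 fell by 1.84 from P14 to P28 (SE 0.56, limma adjusted p = 0.0422), but the libraries of the 2 ages overlapped, the call was lost in 11 of the 12 fits with 1 library left out, and edgeR gave an adjusted p of 0.0747. The call was also lost with no filter on low values (0.0584) and in a fit of the P14 and P28 libraries only (0.304). Of the fits with 1 library left out, it stood only in that without P28 replicate 1, at -2.58 with a limma adjusted p of 0.00338, and without P28 replicate 2 the change was -1.03.

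Lmna, which encodes lamins A and C, lies on chromosome 3 from 88480147 to 88509956 on the minus strand. It was at 222, 365 and 173 normalized counts at P1, 127, 219 and 201 in the P7 libraries, 540, 135 and 176 in the P14 libraries, and 70.2, 60.2 and 243 in the P28 libraries. All ages overlapped. Lmnb2, which encodes lamin B2, lies on chromosome 10 from 80901203 to 80918245 on the minus strand and was at 99.7, 136 and 92.4 at P1, 140, 144 and 188 in the P7 libraries, 91.1, 192 and 472 in the P14 libraries, and 45.3, 185 and 54.1 in the P28 libraries. Single libraries, P14 replicate 1 for Lmna and P14 replicate 3 for Lmnb2, stood far above the rest. The P7 libraries of Lmnb2 lay above those of P1 without overlap (difference 0.53, limma adjusted p = 0.76).

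Neither gene was called in any comparison. From P1 to P28 the difference was -1.25 for Lmna (SE 0.58, limma adjusted p = 0.113) and -0.48 for Lmnb2 (SE 0.61, limma adjusted p = 0.571). Without P28 replicate 3, Lmna was called from P14 to P28 (-1.84, limma adjusted p = 0.0356) and from P1 to P28 (-1.88, 0.0155, and -1.68, 0.0304 with libraries scaled by their totals), and without P28 replicate 2, Lmnb2 was called from P14 to P28 (-2.01, 0.0287).

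Per kilobase, the lamin total was 567 ± 120 normalized counts at P1, 769 ± 40.1 in the P7 libraries, 195 ± 51.5 in the P14 libraries and 78.5 ± 18.5 in the P28 libraries (SD, n = 3 each). Lmnb1 made up 80.6% ± 10.2 of it at P1 and 87.8% ± 1.80 in the P7 libraries, against 25.0% ± 11.1 in the P14 libraries and 23.4% ± 24.6 in the P28 libraries. P28 replicate 1, at 51.5%, carried this last mean, and the other P28 libraries were at 5.43% and 13.3%. Lmna made up 7.03% ± 1.60 at P7 and 40.5% ± 22.6 at P14, a step in which its own level was not called (0.40 on the log2 scale, limma adjusted p = 0.702). Lmnb2 made up 5.19% ± 0.710 and 34.5% ± 25.0 at these ages, and its level was not called either (0.37, limma adjusted p = 0.737). In P14 replicates 1, 2 and 3, Lmna made up 66.5%, 28.8% and 26.1%, and Lmnb2 9.5%, 34.6% and 59.5%. The ratio of Lmnb1 to Lmna per kilobase was 2.90 to 9.15 in the P1 libraries and 10.5 to 17.2 at P7, and lay between 0.183 and 1.64 in the 6 libraries of P14 and P28, below every earlier library.

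Markers of cell state and of other cells moved with some of these genes. From P7 to P14, the step in which Lmnb1 fell, all 11 cell cycle genes were called lower, beside 10.0% of all genes. The median log2 fold change of the 11 was -4.63. Their sum was 9810 to 16936 normalized counts at P1, 22009 to 28140 in the P7 libraries, 1384 to 2045 in the P14 libraries and 710 to 946 in the P28 libraries. Mki67, the most abundant of them, fell by 4.93 in that step (SE 0.39, limma adjusted p = 1.16e-06) and was still at 30.7, 9.44 and 18.9 at P28. At P14 and P28, Pcna, the sliding clamp of DNA replication, was above it, with means of 783 and 749. Top2a, the topoisomerase of dividing cells, ranged from 6292 to 8052 at P7 and from 4.06 to 5.90 at P28, and Cdk1, the kinase of mitotic entry, had no read at P28. The part of proliferating cells in the fall of Lmnb1 was not tested.

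With Ina, markers of inhibitory interneurons moved in the same directions. Of the 4, Gad1 and Gad2, the enzymes of GABA synthesis, rose from P1 to P7, and all 4 fell from P7 to P14, with a median of -3.14. The rise of Gad1 lost its call with edgeR, with the replicate number as a block, and in 6 of the 12 fits with 1 library left out (highest limma adjusted p = 0.165), while that of Gad2 stood in each of these fits. Their sum was 309 to 1462 normalized counts at P1, with P1 replicate 3 the highest as it was for Ina, 2314 to 5006 in the P7 libraries, 303 to 440 in the P14 libraries and 172 to 460 in the P28 libraries, and Pax2, a factor of interneuron progenitors, was the most abundant. Pax2 led at P1 and P7, and at P14 and P28 its means of 23.6 and 18.9 lay below those of Gad1, 166 and 149. The 9 neuron markers, led at P14 and P28 by Snap25, a protein of synaptic vesicle release, at P1 by Stmn2 and at P7 by Elavl3, summed to 3078 to 7425 at P1, 12581 to 15250 in the P7 libraries, 25792 to 44864 in the P14 libraries and 14957 to 19668 in the P28 libraries. Rbfox3, the nuclear protein NeuN, ranged from 225 to 3068 over the 12 libraries. Of the neuron markers, 6 rose and 0 fell from P1 to P7, and 4 rose and 2 fell from P7 to P14. In the same order, 3.47% and 10.8% of all genes were called higher and 4.24% and 10.0% lower. None of the interneuron or neuron markers was at 0 in any library, and their part in the values of Ina was not tested.

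Markers of granule cells and Purkinje cells were followed for the same reason. Of the 7 markers of granule neuron precursors, led by Cntn2, an adhesion protein of young axons, 5 rose and 0 fell from P1 to P7 and 0 rose and 3 fell from P7 to P14. Of all genes, 3.47% were called higher and 4.24% lower in the first of these steps, and 10.8% and 10.0% in the second. The rises of Nhlh1 and Pax6 lost their calls with edgeR, with a pseudocount of 0.1 and with no filter on low values. They were also lost without P1 replicate 1, P1 replicate 2, P14 replicate 1 or any 1 P7 library. The sum of the 7 precursor markers was 351 to 1552 normalized counts at P1, 6429 to 9154 in the P7 libraries, 4141 to 6554 in the P14 libraries and 1781 to 2494 in the P28 libraries. Atoh1, the factor that defines these precursors, was at 0 in each P14 and P28 library. Barhl1, a factor of the same cells, ranged from 161 to 297 at P7 and was at 0 in 2 of the 3 P28 libraries, and Nhlh1 ranged from 484 to 518 at P7 and was at 0 in all 3. The 6 markers of granule neurons, led by Cbln3, a synaptic organizer, summed to 9272 to 20231 in the P14 libraries, and 5 of them rose from P7 to P14. Gabra6, a GABA receptor subunit of mature granule cells, was at 0 in the P1 libraries and at 1433 to 3285 in the P14 libraries. Of the 7 Purkinje cell markers, led by Itpr1, a calcium channel of the endoplasmic reticulum, 1 rose and 1 fell from P1 to P7 and again from P7 to P14. The rise of Itpr1 and the fall of Car8 from P1 to P7 were both lost without P1 replicate 2, P1 replicate 3 or P7 replicate 1. From P7 to P14, 1 of 7 in each direction was near the 10.8% of all genes called higher and 10.0% called lower. Pcp2 and Calb1 ranged from 1.43 to 210 and from 37.5 to 199.9 over the 12 libraries. Of the 8 microglia markers, led by Csf1r, a growth factor receptor, 1 rose and 0 fell from P1 to P7 and again from P7 to P14. The 1 of 8 higher from P7 to P14 was near the 10.8% of all genes called higher. Cx3cr1 and C1qa ranged from 46.0 to 444 and from 1.35 to 136. Slc1a6, Kcnj8, Tmem119, Aif1, Birc5, Aurkb, Mcm2 and Mcm5, from the lists of Purkinje, mural and microglial cells and of the cell cycle, were at 0 in 1 or more of the P14 and P28 libraries. The part of these cells in the values of Ina, Nefl and Nefm was not tested.

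**Figure D4:**
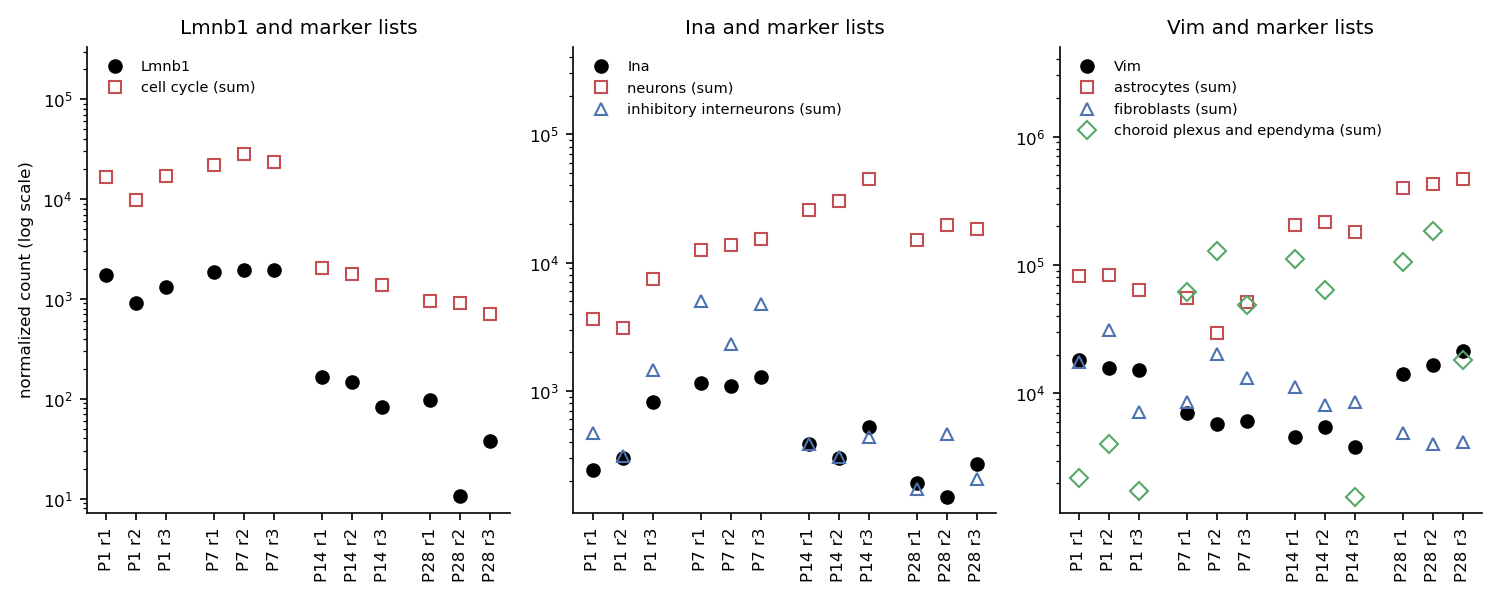
Normalized counts (log scale) of Lmnb1, Ina and Vim in each of the 12 libraries, with the summed level of marker lists in the same libraries. The cell cycle sum falls between P7 and P14 as Lmnb1 does, the interneuron sum is highest at P7 as Ina is, and the astrocyte sum is higher at P14 than at P1 while Vim is lower.

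Vim and Gfap are also made by cells other than astrocytes, and vimentin in particular by fibroblasts and vessel cells. The 5 fibroblast markers, led by Col1a1, a collagen of connective tissue, summed to 7207 to 31313 normalized counts at P1, 8626 to 20285 in the P7 libraries, 8153 to 11163 in the P14 libraries and 4021 to 4918 in the P28 libraries, so this sum was lowest at the age at which Vim rose. Of the fibroblast markers, 0 rose and 1, Col3a1, fell from P14 to P28. Of the 8 endothelial markers, 0 rose and 2 fell in that step, and of the 7 mural cell markers 0 rose and 3 fell. Of all genes, 5.68% were called higher and 8.76% lower in that step. The endothelial calls, of Egfl7 and Kdr, and the mural calls of Rgs5 and Vtn were lost without any 1 P14 library. Kcnj8, the other mural marker called, lost its call only in a fit of the P14 and P28 libraries alone. Col1a2 ranged from 949.9 to 6535 over the 12 libraries. Of the endothelial list, Flt1, its most abundant gene, ranged from 73.8 to 1716, Pecam1 from 59.7 to 1281 and Cdh5 from 319 to 1827. Of the mural list, Vtn, its most abundant gene, ranged from 949 to 3948, Pdgfrb from 487 to 1239 and Rgs5 from 125 to 1475. The sum of the choroid plexus and ependyma list was 48607 to 128513 at P7, when Vim was low, and 18114 to 183029 at P28, when it was high. Ttr made up nearly all of this sum in the P7 and P28 libraries. Foxj1, the factor of ciliated ependyma on that list, was at 578, 1195 and 560 at P1, at 186, 156 and 208 in the P7 libraries, at 356, 256 and 66.2 in the P14 libraries, and at 399, 471 and 135 in the P28 libraries. It fell by 2.00 from P1 to P7 (SE 0.58, limma adjusted p = 0.0478), in the step in which Vim fell, a call that was lost with libraries scaled by their totals or by TMM, with a pseudocount of 0.1, with no filter on low values and in 8 of the 12 fits with 1 library left out (highest limma adjusted p = 0.212). No later step of Foxj1 was called. P28 replicate 3 had the lowest P28 sum of that list and the highest Vim of the series. P14 replicate 3 went the other way, with the lowest sum (1557) and the lowest Vim (3840) of the series. Of the 9 oligodendrocyte lineage markers, 5 rose and 2 fell from P1 to P7, 7 rose and 1 fell from P7 to P14, and 0 rose and 7 fell from P14 to P28, with medians of 1.19, 2.76 and -2.09, so that their sum was highest at P14, where Vim had its lowest mean. In the same order, 3.47%, 10.8% and 5.68% of all genes were called higher and 4.24%, 10.0% and 8.76% lower. The fall of Mag from P14 to P28 kept its call in 2 of 12 fits with 1 library left out. The fall of Pdgfra from P7 to P14 kept its call in 7 of 12.

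From P1 to P7, the step in which Vim fell, 7 of the 10 astrocyte markers fell and 0 rose, with a median of -1.11. Of these calls, that of Slc1a2 stood in 5 of 10 other settings and in 5 of 12 fits with 1 library left out. That of Atp1b2 stood in 9 of these 12 fits, and the others stood in all of them. From P7 to P14, when Vim was lower without a call, 9 of the 10 rose with a median of 2.36, and from P14 to P28 6 rose, with a median of 1.01. Of the 5 Bergmann glia markers, 2 fell in the first step, 4 rose in the second and 2 in the third. In the same order, 3.47%, 10.8% and 5.68% of all genes were called higher and 4.24%, 10.0% and 8.76% lower. Tnc, an extracellular matrix protein and the most abundant of the Bergmann glia markers, ranged from 3471 to 28815 over the 12 libraries and Hopx from 129 to 6570. At P14 and P28 Gdf10 had a higher mean than Tnc. Gdf10, a secreted factor of Bergmann glia, was called from P7 to P14, with a rise of 3.04 (SE 0.46, limma adjusted p = 2.94e-04). The part of any of these cells in the values of Vim and Gfap was not tested.

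Of 18 other intermediate filament genes, 12 were abundant enough to be tested. From P1 to P7, 2 rose and 1 fell, from P7 to P14 none was called, from P14 to P28 1 fell, and from P1 to P28 3 rose and 1 fell, with medians of 0.55, -0.07, 0.06 and 0.90. The shares of all genes called higher were 3.47%, 10.8%, 5.68% and 14.6% in these comparisons, and the shares called lower were 4.24%, 10.0%, 8.76% and 20.0%, so that the 1 of 12 lower from P1 to P28 lay under the background. The most abundant, Iffo2 and Iffo1, which carry the rod domain of the family, averaged 254 and 268 normalized counts at P1, with no step called. At P28 Iffo2 ranged from 222 to 1431 with a mean of 706 ± 639.5 (SD, n = 3), which 1 library carried, and Iffo1 averaged 467. Krt5 and Krt14, keratins of basal epithelia, were at 0 in all 12 libraries.

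Krt18, a keratin of simple epithelia, was at 0, 1.43 and 0 normalized counts at P1, at 72.5, 111 and 40.3 in the P7 libraries, at 152, 25.4 and 2.17 in the P14 libraries, and at 71.6, 64.9 and 54.1 in the P28 libraries. It rose by 5.70 on the log2(value + 1) scale from P1 to P7 (SE 1.10, limma adjusted p = 0.00503). P14 replicate 3 held 2 reads of Krt18, and it was also the P14 library with little Ttr. The part of choroid plexus cells in these values was not tested.

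Prph, which encodes peripherin of peripheral neurons, was at 12.3, 12.9 and 49.2 normalized counts at P1 and at 2.62 or less in each later library. It fell by 3.50 from P1 to P7 (SE 0.85, limma adjusted p = 0.02), a call that was lost with edgeR, with DESeq2, with a pseudocount of 0.1, and when P1 replicate 3, P7 replicate 1 or P7 replicate 3 was left out (-3.98 to -2.87 with 1 library left out). Its 3 P28 libraries held no read, which places it at least 6.21-fold lower than at P1 when each is set to the limit of 3 reads. That bound uses the P1 mean of 24.8, which P1 replicate 3 carried, and would be smaller without this library. Bfsp2, known from the beaded filaments of the lens, was the other gene that rose from P1 to P7 (3.28, limma adjusted p = 0.0246), a call that was lost with edgeR, with a pseudocount of 0.1, and without P1 replicate 2 or 3 or P7 replicate 2 or 3 (log2 fold change 2.69 to 3.80 with 1 library left out, highest adjusted p 0.12). It was at 132, 56.1 and 66.2 at P14 and held no read in the P28 libraries, at least 21.3-fold lower (limma adjusted p = 5.25e-04). Krt222 and Des, the other 2 genes that rose from P1 to P28, reached 163 ± 72.5 and 109 ± 72.4 at P28 (SD, n = 3 each). The call of Des was lost with libraries scaled by their totals alone, in a fit of the P1 and P28 libraries only, and without any 1 of the P1 libraries or P28 replicate 1 (highest limma adjusted p = 0.0964). Krt222, Krt5 and Krt14 were named after their values were seen.

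Cytolinkers are the plakins that tie filaments to microtubules, actin and junctions. All 7 were tested, of which Macf1, Dst and Plec were the most abundant, and 1 rose and 0 fell in each of the 4 comparisons, beside 3.47%, 10.8%, 5.68% and 14.6% of all genes called higher. Macf1, which links actin and microtubules, averaged 14844 ± 390 normalized counts at P1 and 19939 ± 4231 at P28 and was not called in any step. Dst, or dystonin, was at 5073 ± 237 at P1, 7547 ± 342 in the P7 libraries, 11230 ± 358 in the P14 libraries and 11273 ± 1691 in the P28 libraries, and rose by 0.57 in each of the first steps (limma adjusted p = 0.0158 and 0.00649). Plec, or plectin, the main linker of vimentin and GFAP filaments, rose by 1.13 from P14 to P28 (SE 0.23, limma adjusted p = 0.00595), from 830 ± 135 to 1802 ± 183 normalized counts, in the same step as Vim. The first rise of Dst was lost without P1 replicate 1, P1 replicate 2, P7 replicate 2 or P7 replicate 3, with a highest adjusted p of 0.0689, and the second with libraries scaled by their totals alone.

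At the nuclear envelope, 19 partners of the lamins were tested. From P1 to P7, 2 rose and 0 fell, from P7 to P14 1 rose and 4 fell, from P14 to P28 1 rose and 1 fell, and from P1 to P28 2 rose and 4 fell, with medians of 0.00, -0.32, 0.07 and -0.46. Of all genes, 3.47%, 10.8%, 5.68% and 14.6% were called higher and 4.24%, 10.0%, 8.76% and 20.0% lower in the same order, so that from P1 to P28 the share of partners called lower was near the background and the share called higher lay below it. Sun2, 1 of the 4 partners lower at P28 than at P1 (-1.25, limma adjusted p = 0.0497), kept its call in 2 of 10 other settings. With 1 library left out, the call of Sun2 stood in 1 of 12 fits. The 4 genes lower at P14 than at P7 were Syne2, Tmpo, Lbr and Nrm. Tmpo, which encodes the lamina-associated polypeptides, fell by 2.47 (SE 0.31, limma adjusted p = 5.79e-05) and Lbr, the receptor of B-type lamins, by 1.20 (SE 0.33, limma adjusted p = 0.0174). Nrm, a membrane protein of the envelope, fell by 2.66 in that step (limma adjusted p = 0.0278) and by 3.77 in the next (limma adjusted p = 0.00749). Tmpo and Lbr were named after their values were seen. The call of Lbr was lost without P7 replicate 1 or 2 or P14 replicate 1 or 2, and that of Nrm from P7 to P14 without any 1 P7 library or P14 replicate 3, with highest adjusted p-values of 0.10 and 0.113. With 1 library left out, the change of Nrm ran from -3.29 to -1.81 from P7 to P14 and from -4.62 to -3.15 in the next step, and the first call was also lost with a pseudocount of 0.1 and the second in a fit of the P14 and P28 libraries only.

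The 2 giant nesprins, which tie the nucleus to the cytoskeleton, moved in opposite directions from P7 to P14. Syne1 was at 1560 ± 313 normalized counts at P1, 2802 ± 580 in the P7 libraries, 10100 ± 1089 in the P14 libraries and 11038 ± 1881 in the P28 libraries (SD, n = 3 each). Syne2 was at 2316 ± 458, 6712 ± 779, 999 ± 196 and 574 ± 234 in the same order. Both rose from P1 to P7, and from P7 to P14 Syne1 rose by 1.86 (SE 0.19, limma adjusted p = 9.67e-06) while Syne2 fell by 2.76 (SE 0.29, limma adjusted p = 1.15e-05). The rise of Syne1 from P1 to P7 (0.84, limma adjusted p = 0.0126) was lost without P1 replicate 1, P1 replicate 3 or P7 replicate 2. Tor1aip1, the lamina-associated protein LAP1, rose from P14 to P28 by 1.11 (SE 0.16, limma adjusted p = 9.43e-04). Ankle2, the third most abundant of the list, was not called in any step.

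**Figure D5:**
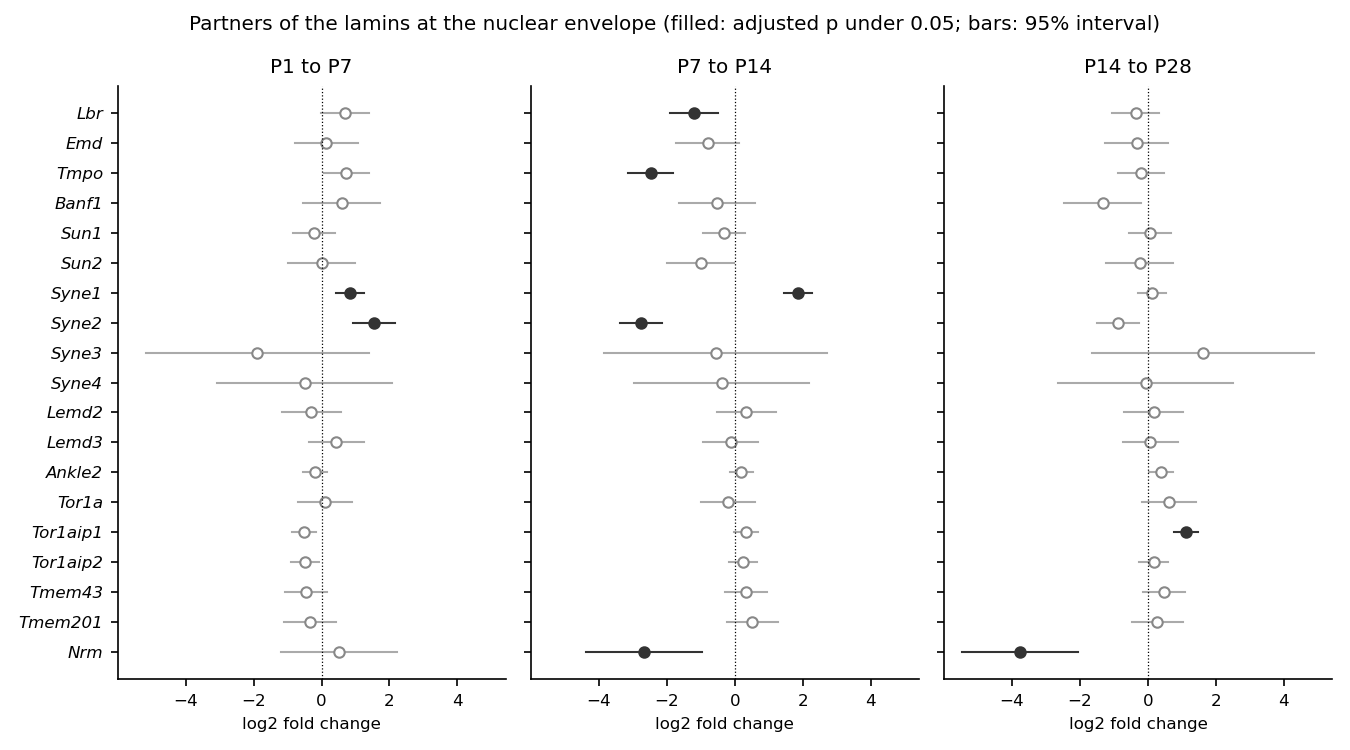
Log2 fold change (later minus earlier age) of 19 partners of the lamins at the nuclear envelope in the 3 consecutive steps, with 95% intervals from limma; filled points have an adjusted p under 0.05. From P7 to P14 Syne1 is the only filled point to the right of 0, at 1.86, and Lbr, Tmpo, Syne2 and Nrm are filled to its left.

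Lamin tails are farnesylated, cut and methylated before the proteins are incorporated. All 6 genes of a list for this maturation were tested, and 1 rose from P1 to P7, 1 from P7 to P14, 0 from P14 to P28 and 3 from P1 to P28, beside 3.47%, 10.8%, 5.68% and 14.6% of all genes, with none lower. Fnta, a subunit of farnesyltransferase, rose by 1.31 from P7 to P14 (SE 0.23, limma adjusted p = 0.00103), from 239 ± 26.3 to 595 ± 45.6 normalized counts. Narf, a protein that binds the prelamin A tail, rose by 0.98 from P1 to P7 (SE 0.25, limma adjusted p = 0.0302), a call lost when any 1 of the 6 P1 and P7 libraries was left out. Icmt, the methyltransferase, was higher at P28 than at P1 by 1.00 (SE 0.32, limma adjusted p = 0.0266), and lost its call when libraries were scaled by their totals, in a fit of the P1 and P28 libraries only, and without P1 replicate 2, P1 replicate 3 or P28 replicate 1 (highest adjusted p 0.0758). From P1 to P28 Narf rose by 0.81 (limma adjusted p = 0.0245), a call lost with the same scaling and in the same fit. It was also lost without P1 replicate 1, P1 replicate 3 or P28 replicate 3. Fnta, the other gene that rose from P1 to P28, kept its call in all these cases. Zmpste24, the protease that cuts prelamin A, was at 565 ± 59.5 at P1 and 751 ± 31.4 at P28 with no step called.

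Finally, the patterns most like those of the 10 genes were sought by Pearson's r of log2(normalized count + 1) over the 12 libraries. The search covered the 10212 genes tested with a mean of at least 100 normalized counts, and any of the 10 genes among them were left out of the matches. This describes likeness of pattern only, over libraries that share their ages and scaling. Lmnb1 was most like Nasp, Bub1 and Mcm7 (r = 0.985, 0.984 and 0.979). Nes was most like Fat4, Zfp462 and Dner (0.967, 0.955 and 0.952), Ina was most like Cep170, Srsf11 and Gad2 (0.964, 0.952 and 0.949), and Vim was most like Ssr3, Tubb2a and Nr2f1 (0.959, 0.95 and 0.936). Gfap was most like Mpv17l2, Prkg1 and Prr13 (0.951, 0.929 and 0.921). For the genes that were never called, the leading r was lower for Nefl (0.782, Synj1), Nefm (0.858, Kctd20) and Lmna (0.864, Ttll12), and was 0.921 both for Synm with 9430020K01Rik and for Lmnb2 with Mical3.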

How the data were processed

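RNA of sorted cells was sequenced in 12 libraries. The authors aligned reads to mm10 with STAR (version 2.5.0a), counted them per gene against UCSC gene models, and scaled each library with DESeq2 (version 1.30.1 per the labels). The deposited values are thus a signal, normalized counts that are whole multiples of 1 step per library. Dividing by that step gave whole reads for 100% of values (tolerance 0.01 read), which served for depth and for the count-based alternatives. Every column was matched to a library through its labels. Column names carry P28 at every age, so ages rest on the labels.

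Gene positions and exon lengths came from GENCODE M21 on GRCm38. Promoter sequences came from RefSeq on GRCm38.p6. The 10 genes, the lists and the tests were chosen with earlier results of these data known. Comparisons used limma (version 3.58.1) under R 4.3.3, fitted to log2(value + 1) with 1 mean for each age and a variance trend. Genes entered if 3 or more libraries reached 10. The added 1 shrinks fold changes of weakly expressed genes. No test was made of a list as a whole. Exact permutation of 3 against 3 libraries cannot go below 0.1 and was not used. Alternatives were edgeR (version 4.0.16), DESeq2 (version 1.42.0), other scalings, pseudocounts, filters and calls, single pairs of ages, a replicate block, and each library left out.

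Named genes were all 10, the 3 most abundant of each other list and the 2 with the largest called change per step, and of each marker list the most abundant, the first 2 and any at 0 in a library. Further genes were named, after their values were seen, where they were called, lost a call or led a list at an age. Replicates of an age differed beyond sampling noise in all 12 pairs. The limit of 3 reads and fold changes from it cover counting error only.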

Additional observations from a re-analysis of the deposited data

How the results depend on the processing

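Over 676 alternative values for the 10 genes and 4 comparisons, 621 kept direction and side of the threshold, 28 lost the call, 17 gained it and 10 changed sign, all 10 in differences that were not called. Scaling by library totals moved the median of all genes from 0.037, -0.086, -0.122 and -0.235 to 0.095, -0.341, -0.347 and -0.66, called 5 of the 10 genes from P1 to P28 (42.0% of all genes), and turned Vim in that comparison to -0.36. It changed no direction among the 234 called steps of the listed genes. From P14 to P28, no filter on low values and a fit of those ages alone each called 1 of the 10 (9.63% and 4.95% of all genes), and the study's thresholds, read as p without adjustment under 0.05 beside a log2 change above 0.75, called 5 (24.1%). All genes called from P1 to P7 numbered 1191, against 1797 with DESeq2, 2820 in a fit of those ages alone and 2198 by those thresholds. From P14 to P28 they numbered 2232, against 766 and 3725 by the latter 2. The cause was not tested.

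With 1 library left out, 2 to 4, 2 to 4, 1 to 3 and 3 to 5 of the 10 genes and 651 to 1536, 2173 to 3933, 1242 to 2807 and 3916 to 5751 of all genes were called in the 4 comparisons. Signs changed within the ranges of Gfap (-0.25 to 0.08), Lmna (-0.20 to 0.80) and Lmnb2 (-0.24 to 0.94) from P7 to P14, of Nefm from P14 to P28 (-0.49 to 1.14), and of Vim (-0.09 to 0.21), Synm (-0.29 to 0.26) and Nefl (-0.63 to 0.20) from P1 to P28.

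Deviations of same-numbered libraries of different ages were weakly correlated at most (r from -0.029 to 0.139 over 18 pairs, median 0.031, 1 over 0.1). Of the 12 libraries, 5 were closest to their own number at every other age. Whether same-numbered libraries share a weak deviation was not tested. With the replicate number as a block, 4, 3, 4 and 4 of the 10 genes were called, beside 7.52%, 20.4%, 13.8% and 34.5% of all genes, with Ina added from P14 to P28 (limma adjusted p = 0.046) and from P1 to P28 (0.0222). Nefm had no value with a minimum of 10 in every library. Depth limits the low values: of the 10 genes, Lmnb1 and Nefm held 9 and 8 reads in their lowest P28 library, and of the other filament genes Prph and Bfsp2 held no read in any P28 library.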
